A study of Mus musculus with 4 samples.

Results

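The Gimap genes (GTPases of immunity-associated proteins) were compared between the genotypes in double-positive (CD4+CD8+) thymocytes, a T cell stage before either coreceptor is switched off. Every probe set whose single gene symbol in the platform annotation was Gimap1, Gimap3, Gimap4, Gimap5, Gimap6, Gimap7, Gimap8 or Gimap9 was taken. This gave 9 probe sets for 8 genes, of 45037 probe sets in all: Gimap4 had 2 and the other 7 genes had 1 each. The study hybridised RNA of double-positive cells, sorted by flow cytometry from the thymus of C57BL/6 mice, to 4 single-colour Affymetrix arrays. Of these, 2 were labelled hCD2-iCre x Gfi1fl/fl and 2 were labelled WT. In the first genotype a recombinase driven by elements of the human CD2 gene, which is active in lymphoid cells well before the double-positive stage, acts on a floxed Gfi1 gene, the gene of a zinc-finger transcriptional repressor. The labels gave no recombinase for the WT mice, so its own effect cannot be told apart from that of the floxed gene, and they gave neither age nor sex. They also left unsaid whether the replicates of a label were separate mice. The p-values therefore rest on spread between arrays of a label, which may be technical. In limma, the spread of each probe set was moderated towards a trend over all probe sets.

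Gimap proteins are GTPases of the AIG1 family. They share a GTP-binding domain, and several carry a membrane anchor at the carboxyl end that places them on intracellular membranes. The genes lie side by side in a single cluster and are expressed mainly in lymphocytes, where they are known for their part in the survival and maturation of T cells. In mouse thymus, expression of the family as a whole is known to change between the double-positive and the mature single-positive stages.

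In the RefSeq table of assembly GRCm38.p6 the cluster lay at chr6:48647186-48770851, over 124 kb, in the order Gimap8, Gimap9, Gimap4, Gimap6, Gimap7, Gimap1, Gimap5 and Gimap3. Gimap4 itself was annotated at chr6:48684578-48692062, between Gimap9 at chr6:48676121-48679116 and Gimap6 at chr6:48701583-48708244. The promoter windows of these 3 neighbours are shown because Gimap4 was the gene of the family that changed and the other 2 flank it. Each window runs from 250 bases before to 50 bases after the start that the RefSeq promoter table uses, 5′ to 3′ on the strand of the gene, from RefSeq on GRCm38.p6: chr6:48684328-48684627 (plus strand) for Gimap4, chr6:48675885-48676184 (plus strand) for Gimap9 and chr6:48708195-48708494 (minus strand) for Gimap6. For Gimap4 and Gimap6 that start is the 5′ end of the gene as annotated, and for Gimap9 it is base 48676135, which lies inside the annotated gene. Capitals mark matches to any of the motifs searched, on either strand.
Gimap4: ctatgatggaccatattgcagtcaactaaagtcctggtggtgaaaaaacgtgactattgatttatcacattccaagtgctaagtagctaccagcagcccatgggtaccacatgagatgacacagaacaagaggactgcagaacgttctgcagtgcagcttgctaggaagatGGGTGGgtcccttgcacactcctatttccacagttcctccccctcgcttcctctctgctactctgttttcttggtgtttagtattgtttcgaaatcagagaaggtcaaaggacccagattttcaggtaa
Gimap9: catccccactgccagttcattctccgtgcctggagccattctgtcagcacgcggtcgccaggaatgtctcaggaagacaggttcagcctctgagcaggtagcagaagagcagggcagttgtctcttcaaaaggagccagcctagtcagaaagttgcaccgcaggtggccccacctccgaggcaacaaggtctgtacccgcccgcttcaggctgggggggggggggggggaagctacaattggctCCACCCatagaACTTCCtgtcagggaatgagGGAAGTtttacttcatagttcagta
Gimap6: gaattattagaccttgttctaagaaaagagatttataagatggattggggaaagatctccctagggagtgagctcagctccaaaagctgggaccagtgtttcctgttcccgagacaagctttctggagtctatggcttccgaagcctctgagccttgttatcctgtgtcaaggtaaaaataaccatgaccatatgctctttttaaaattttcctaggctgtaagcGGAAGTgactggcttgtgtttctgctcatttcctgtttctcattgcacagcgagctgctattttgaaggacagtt

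The motifs searched on both strands included AAATCAC for GFI1, GTAAACA for FOXO factors, CCACCC for Krüppel-like factors and GGAAGT for ETS factors. For the interferon response element, GAAA, then 2 bases of any kind, then GAAA was searched. A longer pattern, AATC, then 4 bases of any kind, then GC, was searched with GFI1 in mind. Its spacing is not that of the GFI1 consensus, so its count does not bear on GFI1 sites. No searched motifs overlapped in the 3 windows shown. Gimap4 held 1 match, to CCACCC on the opposite strand, whose leftmost base lay at -79 (counted from the start of each window's own table entry, the base before it being -1). Gimap9 held CCACCC at -6, GGAAGT on the opposite strand at 6 and GGAAGT at 26, and Gimap6 held GGAAGT at -25. Over the 9 windows of the 8 genes (Gimap8 had 2), CCACCC was found in 5, belonging to Gimap3, Gimap4, Gimap5, Gimap8 and Gimap9, and in 31.5% of 32851 windows of the same length in the table. GGAAGT was found in 4 of 9 and in 23.8% of all. AAATCAC was found in 1, that of Gimap1 (3.2% of all windows), and GTAAACA in 1, that of Gimap3 (3.65%). The longer pattern was found in 0 of 9 and in 9.39% of all windows, and the interferon response element in 0 of 9 and in 3.44%. A match is a description of these letters in this window. The motif in the Gimap4 window was also present in 4 genes of the family that were not called. Binding was not measured, and a part of this motif in the Gimap4 difference was not tested.

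The 4 arrays had medians between 3.53 and 3.55 on the log2 scale, in which a step of 1 is a 2-fold change in signal, and precision is limited by having only 2 arrays for each label. Gfi1, the targeted gene, checks the labels and went against the label: its 1 named probe set gave 11.47 and 11.32 on the arrays labelled hCD2-iCre x Gfi1fl/fl, against 10.17 and 10.08 on the arrays labelled WT, a difference of 1.27 ± 0.13 (SE) with an adjusted p of 0.00976 (limma). This call was lost without WT replicate 1 or 2 (adjusted p = 0.0526 and 0.0683). The sources used here do not give the position of the probe set relative to the floxed part; if it lies outside that part, it checks nothing. All directions are therefore between arrays with these labels. The arrays of a label also differed in proliferation genes: over 9 such genes, chosen with earlier results known, the mean was 7.76 and 9.93 on hCD2-iCre x Gfi1fl/fl replicates 1 and 2, and 8.56 and 9.38 on WT replicates 1 and 2. Neither pair of replicates was close in these genes, and results below are given with each array left out where that changes a call.

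Gimap4 was the only Gimap gene called between the labels, and both of its probe sets were far higher on the arrays labelled hCD2-iCre x Gfi1fl/fl. Both calls held without any single array. An ordinary t statistic, which does not share the estimate of spread across probe sets, called neither after adjustment (adjusted p = 0.574 for the brighter and 0.584 for the other probe set). In mouse, Gimap4 is known for promoting the death of T cells once apoptosis has begun and is not required for their development. Its brighter probe set (1424375_PM_s_at) gave 9.69 and 9.81 on the arrays labelled hCD2-iCre x Gfi1fl/fl, against 6.11 and 5.55 on the arrays labelled WT. The groups were separated by more than 3 log2 units, several times the gap between the WT arrays, and the arrays labelled hCD2-iCre x Gfi1fl/fl lay close together. The means were 9.75 ± 0.08 and 5.83 ± 0.40 (SD, n = 2 each), and the difference was 3.92 ± 0.26 (SE), a 15.1-fold higher signal with an adjusted p of 0.00165 (limma). Its 95% interval ran from 3.29 to 4.54. In RNA of bulk sorted cells, more cells that express a gene and more RNA per cell cannot be told apart.

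The second Gimap4 probe set (1424374_PM_at) gave 8.61 and 8.73 on the arrays labelled hCD2-iCre x Gfi1fl/fl, against 5.66 and 5.10 on the arrays labelled WT. The separation had the same form as for the first, with WT replicate 2 the lowest array for both. The difference was 3.29 ± 0.28 (SE), a 9.80-fold higher signal with an adjusted p of 0.00362 (limma). Both probe sets were annotated to the same transcript record, so they are 2 readings of 1 gene on the same arrays and not independent evidence. They agreed in direction but not in size: the first lay above the second by 1.08 on each array labelled hCD2-iCre x Gfi1fl/fl and by 0.46 and 0.45 on the arrays labelled WT. The s_at suffix marks a probe set designed to match more than 1 transcript, so cross-hybridisation can add to its signal.

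**Figure D1:**
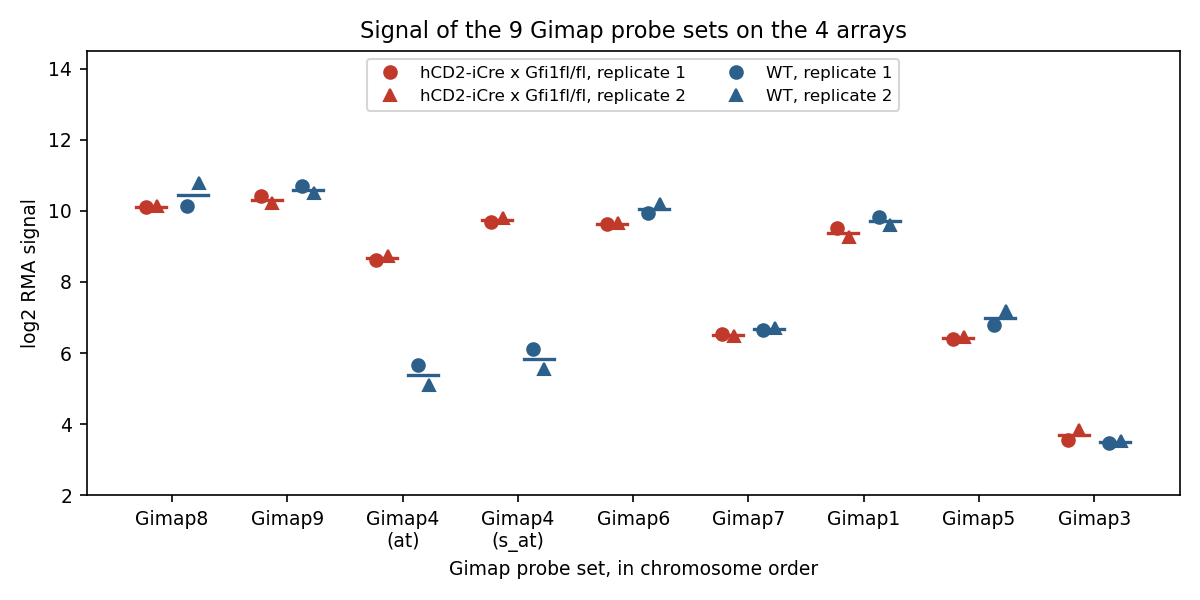
Log2 RMA signal (vertical axis) of the 9 Gimap probe sets in chromosome order, with each array as a point (circle, replicate 1; triangle, replicate 2), arrays labelled hCD2-iCre x Gfi1fl/fl in red to the left of WT arrays in blue, and a line at each mean of 2. For Gimap4 the red points lie at 9.69 and 9.81 (s_at) and at 8.61 and 8.73 (at), far above the blue ones, while for the other 7 probe sets the colours lie close together.

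Over the whole table, limma with Benjamini-Hochberg adjustment called 299 probe sets higher (0.664% of 45037) and 46 lower (0.102%) at an adjusted p of 0.05, together 0.766%. In a fit of 1 probe set a gene it called 1.11% of 17097 genes. Of the 9 Gimap probe sets, 2 were higher, both of Gimap4, and 0 were lower by this test. By unadjusted p, 3 Gimap probe sets lay under 0.05, the third being that of Gimap6, against 7.64% of all probe sets. In the order of all 45037 differences from the most positive, the Gimap4 probe sets stood at places 38 and 63, and Gimap3 at 5505. The other 6 stood between 35890 and 43858, on the side of the lower signals. The median difference was -0.27 over the 9 Gimap probe sets and -0.32 over the 7 that are not of Gimap4, beside -0.01 over all probe sets.

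**Figure D2:**
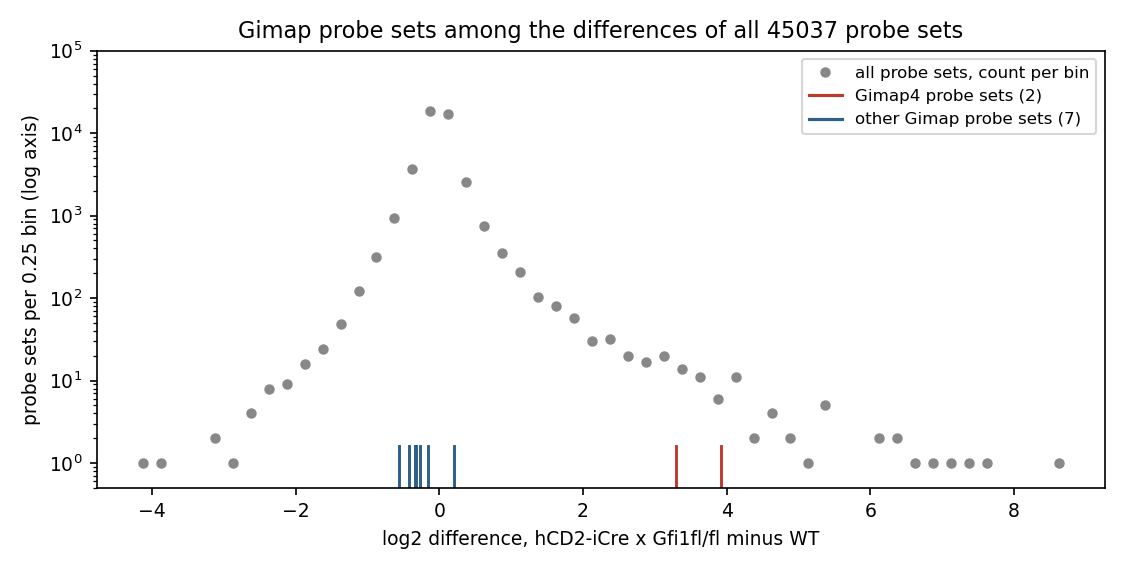
Number of probe sets (vertical log axis) in bins of 0.25 of the log2 difference, hCD2-iCre x Gfi1fl/fl minus WT (horizontal axis), as grey points for all 45037 probe sets, with a tick at the difference of each Gimap probe set. The 2 Gimap4 ticks (red, 3.29 and 3.92) lie in the sparse right tail and the other 7 (blue) in the dense centre, 6 of them below 0.

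The genes on both sides of Gimap4 were not called higher. Gimap6 (1427891_PM_at), which in human and mouse is known for binding a protein of the autophagy machinery, gave 9.63 and 9.64 on the arrays labelled hCD2-iCre x Gfi1fl/fl, against 9.93 and 10.19 on the arrays labelled WT. The groups did not overlap, with the arrays labelled hCD2-iCre x Gfi1fl/fl nearly equal and below both WT arrays. The difference was -0.42 ± 0.17 (SE), with a 95% interval from -0.82 to -0.02, an unadjusted p of 0.0413 and an adjusted p of 0.612 (limma). Gimap9 (1437756_PM_at), a member whose role in mouse is little known, gave 10.42 and 10.21 on the arrays labelled hCD2-iCre x Gfi1fl/fl, against 10.69 and 10.49 on the arrays labelled WT. Replicate 1 was the higher array under both labels, and the lower WT array lay just above the higher array of the other label. The difference was -0.27 ± 0.16 (SE), with an interval from -0.64 to 0.09 and an adjusted p of 0.806 (limma).

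Gimap5 and Gimap1 are the members best known from loss of function, since mice and rats without functional Gimap5 and mice whose lymphocytes lack Gimap1 have few peripheral T cells. Gimap5 (1444181_PM_at) gave 6.40 and 6.44 on the arrays labelled hCD2-iCre x Gfi1fl/fl, against 6.78 and 7.19 on the arrays labelled WT. Both WT arrays were higher, WT replicate 2 the most. The difference of -0.56 ± 0.26 (SE) was the most negative of the family and was not called (95% interval -1.17 to 0.05, adjusted p = 0.704, limma). Gimap1 (1449988_PM_at) gave 9.51 and 9.27 on the arrays labelled hCD2-iCre x Gfi1fl/fl, against 9.81 and 9.61 on the arrays labelled WT. The gap between the labels was little larger than that between replicates, and the difference of -0.32 ± 0.18 (SE) was not called (95% interval -0.76 to 0.11, adjusted p = 0.810, limma).

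Gimap8 (1456061_PM_at), the member with repeated GTP-binding domains, gave 10.09 and 10.13 on the arrays labelled hCD2-iCre x Gfi1fl/fl, against 10.13 and 10.78 on the arrays labelled WT. WT replicate 2 stood apart, while WT replicate 1 was level with the arrays of the other label. The difference was -0.34 ± 0.22 (SE, adjusted p = 0.847, limma), and it was -0.02 without WT replicate 2 and -0.66 without WT replicate 1. Gimap7 (1425084_PM_at), which in human is known to stimulate the GTPase activity of another member, gave 6.54 and 6.48 on the arrays labelled hCD2-iCre x Gfi1fl/fl, against 6.64 and 6.69 on the arrays labelled WT. All 4 arrays lay close together, and the difference was -0.16 ± 0.23 (SE, 95% interval -0.71 to 0.40, adjusted p = 0.994, limma). Gimap3 (1449220_PM_at), the closest relative of Gimap5, gave 3.57 and 3.84 on the arrays labelled hCD2-iCre x Gfi1fl/fl, against 3.48 and 3.52 on the arrays labelled WT. These signals lay near the median of all values (3.54), where a fall was not detectable, and the difference of 0.20 ± 0.16 (SE) was not called (adjusted p = 0.900, limma).

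**Figure D3:**
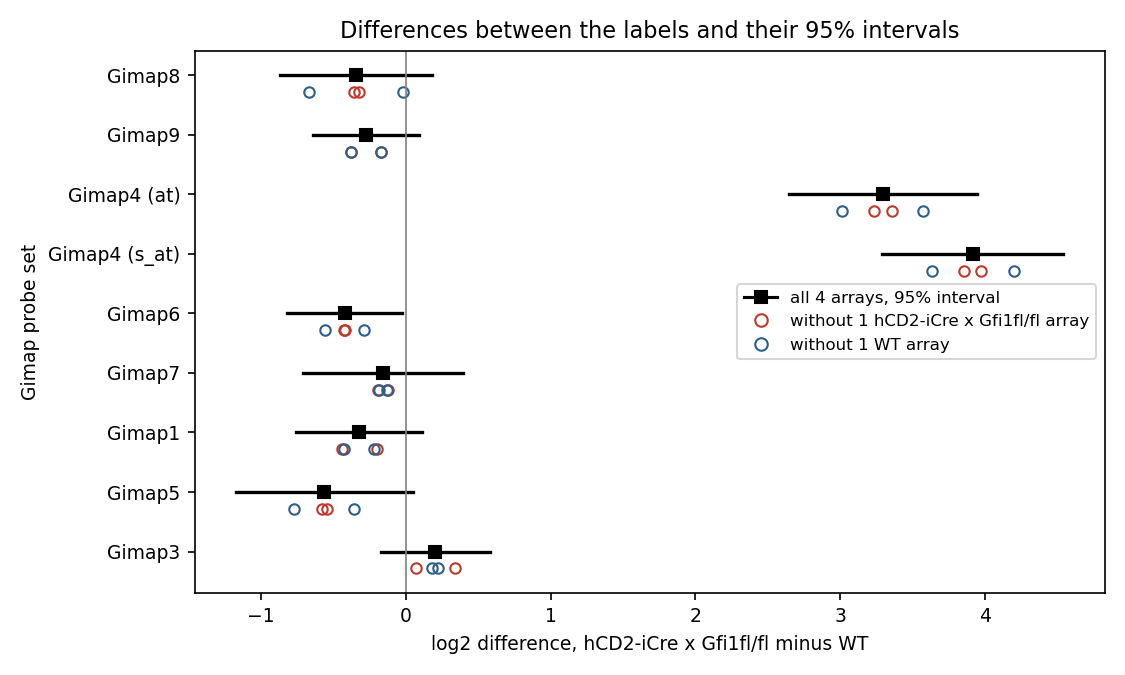
Log2 difference, hCD2-iCre x Gfi1fl/fl minus WT (horizontal axis), of each Gimap probe set in chromosome order from top to bottom, as a black square with its 95% limma interval, and as open circles below it with 1 array left out (red, an hCD2-iCre x Gfi1fl/fl array; blue, a WT array). The Gimap4 intervals start at 2.64 and 3.29, while no upper limit of the other 7 passes 0.58.

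The 6 genes with a negative difference were each lower on both arrays labelled hCD2-iCre x Gfi1fl/fl than on both arrays labelled WT, although for Gimap8 the margin was under 0.01. Over all probe sets, 17.9% had groups separated in this direction and 16.8% in the other (34.7% together), where both Gimap4 probe sets and Gimap3 stood. These shares include dim probe sets (median of all values 3.54), whereas the 6 genes had group means of 6.42 or more. The 6 were read on the same arrays and are not separate evidence. WT replicate 2 was the highest array for Gimap5, Gimap6, Gimap7 and Gimap8, and WT replicate 1 for Gimap1 and Gimap9. The signals of the 6 genes with a negative difference were 1.12-fold to 1.47-fold lower, and 0 of the 7 probe sets that are not of Gimap4 were called by limma. At an unadjusted p of 0.05 there was 1, that of Gimap6. A p that misses the threshold does not show that these genes were unchanged. The 95% intervals of the 7 probe sets reached at most 0.58 upward (Gimap3), a 1.50-fold rise, and at most -1.17 downward (Gimap5).

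Because all probe sets were read on the same arrays, Gimap4 was also set against the rest of the family within each array, a comparison chosen after its values were seen. The brighter Gimap4 probe set minus the mean of the other 7 was 1.66 and 1.81 on the arrays labelled hCD2-iCre x Gfi1fl/fl, against -2.09 and -2.80 on the arrays labelled WT. This log2 ratio was thus far higher on both arrays labelled hCD2-iCre x Gfi1fl/fl. The shift between the labels was 4.18, larger than the gaps between replicates. An exact two-sided permutation test over the 4 arrays gave p = 0.333, the smallest that 2 arrays against 2 allow. The mean of the other 7 was itself 8.02 and 8.00 on the arrays labelled hCD2-iCre x Gfi1fl/fl, against 8.21 and 8.35 on the arrays labelled WT.

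The chromosome around the cluster was examined through the 10 nearest measured genes on each side, over 995 kb in all. Of these 20 genes, 0 were higher and 0 lower by limma, beside 0.871% and 0.135% of 17097 genes taken by their brightest probe set, and their differences lay between -0.64 and 0.58 with a median of -0.01. At an unadjusted p of 0.05 there was 1, Fam221a (difference -0.64, adjusted p = 0.538), against 7.94% of all genes. Several of the 20 lay below the median of all values (3.54) under both labels, among them Atp6v0e2, Aoc1 and Doxl1. At such signals a fall was not detectable. Next to Gimap8 stood AI854703, an annotated transcribed pseudogene, with 3.11 and 3.29 on the arrays labelled hCD2-iCre x Gfi1fl/fl, against 3.83 and 3.39 on the arrays labelled WT (difference -0.41 ± 0.18 SE, adjusted p = 0.677). Its signals lay near the median of all values. Next to Gimap3 stood Tmem176b, a membrane protein gene, with 7.78 and 7.39 on the arrays labelled hCD2-iCre x Gfi1fl/fl, against 7.41 and 6.59 on the arrays labelled WT (difference 0.58 ± 0.33 SE, adjusted p = 0.807). For Tmem176b the groups overlapped, and replicate 2 was lower under both labels.

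**Figure D4:**
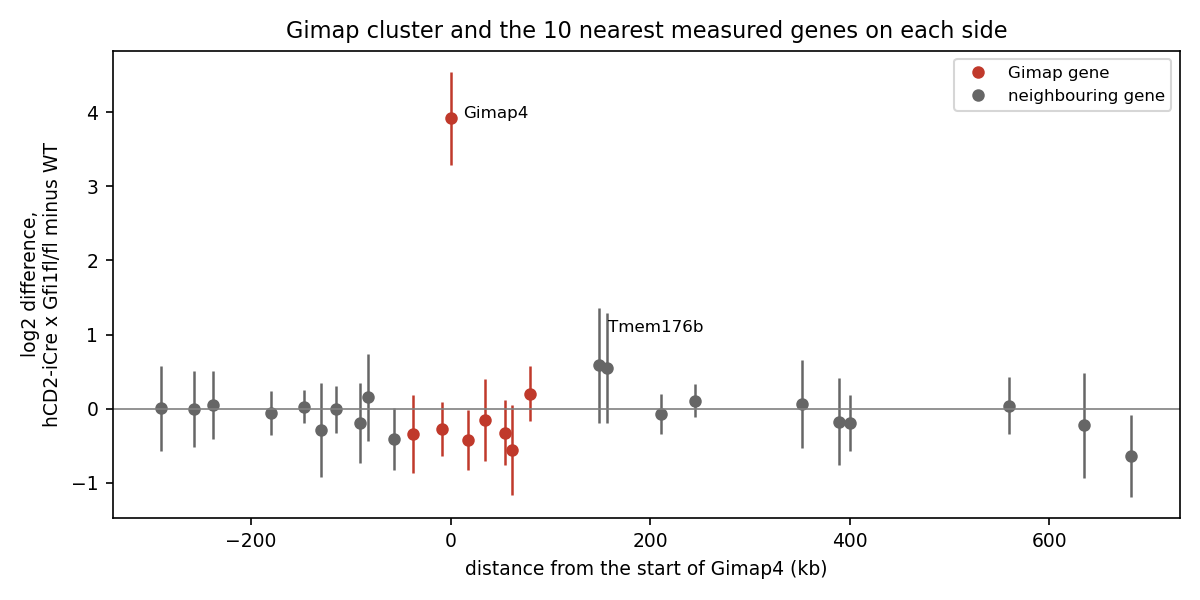
Log2 difference, hCD2-iCre x Gfi1fl/fl minus WT, with its 95% limma interval (vertical axis) against the distance of the gene's first base from that of Gimap4 in kb (horizontal axis), for the 8 Gimap genes (red, brightest probe set) and the 10 nearest measured genes on each side (grey). Gimap4 stands alone at 3.92, and the points of all other genes drawn lie between -0.64 and 0.58.

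Genes tied to the Gimap proteins in other settings were not called. Of 13 listed partners and survival regulators, which include the Bcl-2 family, 10 were measured, and 0 were called by limma in either direction, with a median difference of 0.06, beside 0.871% of all genes called higher and 0.135% lower. At an unadjusted p of 0.05 there were 2, Bcl2l11 and Stk4, against 7.94% of all genes. Bcl2l11, which encodes the pro-apoptotic protein Bim, gave 10.77 and 10.99 on the arrays labelled hCD2-iCre x Gfi1fl/fl, against 10.30 and 10.54 on the arrays labelled WT (difference 0.46 ± 0.15 SE, adjusted p = 0.472). Gsk3b, the kinase gene linked to Gimap5 in mouse T cells, gave 8.68 and 9.11 on the arrays labelled hCD2-iCre x Gfi1fl/fl, against 9.14 and 9.44 on the arrays labelled WT (difference -0.39 ± 0.23 SE, adjusted p = 0.812).

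The 31 listed genes of T cell maturation and egress were chosen with earlier results of these data known. Their counts therefore do not test for an excess. Of these genes 24 were measured, and 13 had an unadjusted p under 0.05 (limma), against 7.94% of all genes. Of the 13, Itga4 and Ramp1 (-0.66) had negative differences. Limma called 0.871% of all 17097 genes higher and 0.135% lower. In the list 7 rose, 1 fell and 16 were not called by limma (median difference 0.10). The largest were Klf2, a transcription factor of T cell quiescence and migration (5.20), Ly6c1, a surface antigen (3.86), Tesc, a calcium-binding protein gene (3.06), and Itgb7, an integrin chain of gut homing (2.92). Ly6c1 has a close paralog with which its probe set may cross-hybridise. Their adjusted p lay between 0.000558 and 0.00360, and all 4 were called without any single array. The gene that fell was Itga4, which encodes the integrin chain that pairs with Itgb7 (difference -1.69, adjusted p = 0.0295), a call lost without WT replicate 1 or 2 (adjusted p = 0.125 and 0.183). With 1 array left out, between 5 and 6 genes of the list rose and between 0 and 2 fell.

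Among 23 listed immune GTPase and GTPase-related genes outside the family, 16 were measured, 2 rose and 14 were not called by limma (median difference 0.35), beside the same 0.871% higher and 0.135% lower of all genes. They were Iigp1 and Tgtp1, interferon-inducible GTPases of the IRG family, the second with a nearly identical paralog that its probe set may also read. At an unadjusted p of 0.05 there were 8 of this list, against 7.94% of all genes. All of these had positive differences, in a list chosen with earlier results known. Iigp1 gave 6.33 and 7.51 on the arrays labelled hCD2-iCre x Gfi1fl/fl, against 3.84 and 3.38 on the arrays labelled WT (9.88-fold higher, adjusted p = 0.0180). Tgtp1 gave 9.51 and 10.29 on the arrays labelled hCD2-iCre x Gfi1fl/fl, against 7.10 and 7.05 on the arrays labelled WT (7.10-fold higher, adjusted p = 0.00797). Both were lowest on the WT arrays and higher on hCD2-iCre x Gfi1fl/fl replicate 2 than on replicate 1, whereas Gimap4 was nearly equal on those arrays. The call of Iigp1 was lost without WT replicate 1 or 2 (adjusted p = 0.0532 and 0.0899).

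Over 17097 genes, those whose brightest probe set was most like the brighter one of Gimap4 were Ifi27l2a, Atf6, Card6, Cfap20dc and Wfs1. Likeness was the Euclidean distance between the 4 log2 values after each gene's own mean was subtracted, and it was 0.284 for Ifi27l2a, 0.310 for Atf6, 0.329 for Card6, 0.343 for Cfap20dc and 0.345 for Wfs1. Their differences lay between 3.63 and 4.20. With 4 arrays this describes genes that differ between the labels by a similar amount, and no more. The 7 other Gimap genes lay between 3.74 (Gimap3) and 4.53 (Gimap5) from Gimap4 on the same measure.

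The sorted cells were described by marker genes. They were sorted as double-positive, so the coreceptor genes among the markers are not an independent check of the sort. Of 10 double-positive markers 9 were measured, all with signals above the median of all values under both labels. Differences were -0.23 for Cd4, -0.04 for Cd8a and -0.17 for Cd8b1, all genes of coreceptor chains. For the recombinase genes they were -0.05 (Rag1) and 0.08 (Rag2). Other markers without a call gave -0.45 (Ptcra), -0.33 (Cd3e) and -0.06 (Arpp21). The median of the list was -0.17, and Rag2 was its only measured gene with a positive difference. In this list 0 rose and 1 fell, beside 0.871% and 0.135% of all genes. The gene that fell was Dntt, terminal transferase, with a difference of -0.69 (adjusted p = 0.0381, limma), a call lost in 3 of 4 fits without 1 array, at adjusted p between 0.0645 and 0.260. Of 5 markers of mature naive T cells, cells in which Gimap genes are expressed, Klf2 and S1pr1 were measured. Their summed linear signal was 845 and 1044 on the arrays labelled hCD2-iCre x Gfi1fl/fl, against 42.1 and 35.6 on the arrays labelled WT. On the arrays labelled hCD2-iCre x Gfi1fl/fl, Klf2 made up 808 and 1005 of that sum and S1pr1 36.9 and 39.3, so the sum is nearly that of 1 gene. On the arrays labelled WT, Klf2 made up 26.0 and 23.1 and S1pr1 16.1 and 12.5. By limma, Klf2 was called while S1pr1 was not (adjusted p = 0.0501). Their part in the Gimap4 difference was not tested.

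Other cells that express Gimap genes include B cells, innate lymphocytes and endothelium. Of 30 measured markers of B cells, myeloid cells, gamma-delta T and innate lymphoid cells, endothelium, and erythroid cells and platelets, 0 were called by limma, and 2, Cd79b and Nkg7, had an unadjusted p under 0.05. Over all genes, 0.871% were called higher and 0.135% lower, and 7.94% had an unadjusted p under 0.05, so these counts lie near the background. Without hCD2-iCre x Gfi1fl/fl replicate 1, in a fit of 1 array against 2, 1 B cell marker was called lower and 1 innate lymphocyte marker higher. The summed linear signal of 5 B cell markers was 208 and 115 on the arrays labelled hCD2-iCre x Gfi1fl/fl, against 347 and 273 on the arrays labelled WT, with group means of Cd79a, Ms4a1 and Pax5 below the median of all values under both labels. For 7 endothelial markers it was 210 and 191 on the arrays labelled hCD2-iCre x Gfi1fl/fl, against 186 and 202 on the arrays labelled WT, with Cldn5, Kdr and Tek below that median. For 6 markers of innate lymphocytes and gamma-delta T cells it was 53.2 and 62.8 on the arrays labelled hCD2-iCre x Gfi1fl/fl, against 49.1 and 48.1 on the arrays labelled WT, with all but Nkg7 below that median. For 7 myeloid and dendritic markers it was 79.3 and 91.6 on the arrays labelled hCD2-iCre x Gfi1fl/fl, against 84.3 and 74.3 on the arrays labelled WT, with all but Lyz2 below it. For 5 erythroid and platelet markers it was 464 and 1442 on the arrays labelled hCD2-iCre x Gfi1fl/fl, against 203 and 1192 on the arrays labelled WT, and was higher on replicate 2 under both labels. On each array most of this sum was Hba-a1, most of the B cell sum Cd79b and most of the endothelial sum Pecam1. Cd79b, a chain of the B cell receptor complex, gave 7.41 and 6.28 on the arrays labelled hCD2-iCre x Gfi1fl/fl, against 8.26 and 7.88 on the arrays labelled WT. Nkg7, a cytotoxic granule gene, gave 3.43 and 4.28 on the arrays labelled hCD2-iCre x Gfi1fl/fl, against 2.95 and 2.77 on the arrays labelled WT (adjusted p = 0.277, limma). The part of these markers in the Gimap results was not tested.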

How the data were processed

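RNA of sorted thymocytes was converted to biotin-labelled target from its 3′ ends, per the labels' protocols, and read on 1 single-colour array per sample. Per the submitters' processing notes, which give no settings, the tools were RMA and Affymetrix Expression Console 1.1. The deposited matrix was read as log2 values of RMA, judging by the range and the nearly equal quartiles of the arrays. RMA compresses differences at both ends of its range. Detection calls were not used here.

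Probe sets were named from a platform annotation table: 28898 had 1 symbol, 551 several, and 15588 were not listed. Gene positions and promoter windows came from RefSeq (GRCm38.p6), and all 8 genes matched. Because members are probe sets, limma 3.58.1 (lmFit, eBayes with an intensity trend, R 4.3.3) was fitted over all 45037, with no filter or covariate, two-sided, with Benjamini-Hochberg adjustment and calls at 0.05. It left 2 residual degrees of freedom, to which the prior added 5.05. Folds are log2 differences turned back to the linear scale. In lists the brightest probe set by mean signal stood for a gene, and listed genes without a single-symbol probe set were not analysed here. All 9 Gimap probe sets are given, and the likeness rule took 5 genes. Of each list, the rule was up to 4 called genes with the largest change, or 2 where none was called. Outside this rule, Itga4 was given as the called gene of its list that fell, and the measured double-positive markers were all given. Some further genes were named for an unadjusted p under 0.05 or for their part in a sum. The members and lists were chosen with earlier results of these data known. The fit was run on simulated data with independent noise drawn from its own fitted prior, which does not check the calls made here. Figures were drawn with matplotlib 3.10.9.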

Additional observations from a re-analysis of the deposited data

How the results depend on the processing

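Both Gimap4 probe sets were called in every alternative fitted with limma's moderation that tested them, with differences from 3.60 to 4.20 and adjusted p from 0.000755 to 0.0145 for the brighter one, and from 3.01 to 3.57 and from 0.00177 to 0.0232 for the other. The alternatives comprised the replicate block, centring on array medians, quantile normalization once more, removal of the dimmest 30% or 50% of probe sets, priors that were robust or had no trend, single-symbol probe sets, 1 probe set a gene, the mean of a gene's probe sets (brighter one only, 3.60), and each array left out. An ordinary t statistic without moderation called 0 Gimap probe sets (2 at an unadjusted p of 0.05) and 1 of all probe sets (3080 at an unadjusted p of 0.05). The other 7 Gimap probe sets kept their sign and were not called in any alternative.

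Taking 1 probe set a gene called 1 Gimap probe set, since the second of Gimap4 was then not tested, and 190 in all, against 345 over all probe sets. Without the intensity trend 205 were called in all. With 1 array left out, between 168 and 368 were called, 178 without WT replicate 1 and 168 without WT replicate 2, and 2 Gimap probe sets in each case. The replicate 1 arrays of the labels had deviations from their group means that correlated at 0.30. With 2 arrays per label the deviations of replicate 2 are the same with opposite sign, so this is 1 comparison. The labels do not say what a number marks. With the replicate block 2 Gimap probe sets and 272 in all were called. The promoter search gave 11 pairs of window and motif, and 9 in the 250 bases before the start alone. With the other Gimap4 probe set, or without Gimap3, the shift of Gimap4 against the family was 3.56 and 4.26, alternatives chosen after seeing the data. The dim Gimap3 probe set and 2 arrays per label limit what could be seen.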
